A study of Mus musculus with 6 samples.

Results

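The chemokine system was followed in inguinal white adipose tissue, the subcutaneous fat depot of the groin, of mice that received a high-fat diet. Libraries of wild-type mice (n = 3) were compared with those of Mpst knockout mice (n = 3), which lack a sulfurtransferase that takes part in hydrogen sulfide production. Both groups were fed the high-fat diet, so no comparison with another diet can be made. The sources used here do not give strain, sex, age or the knockout allele. They also do not say whether each library comes from a separate animal, so a p-value measures spread between libraries that may be technical. Members were taken by symbol alone (Ccl, Cxcl, Xcl, Ccr, Cxcr, Xcr and Ackr with a number, and Cx3cl1 and Cx3cr1). Of the 24984 listed genes 60 are described, 39 ligands and 21 receptors, and their reads made up 0.111% of all reads counted in genes. Of these, 37 had enough counts to be tested, 25 ligands and 12 receptors.

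Chemokines are small secreted proteins that guide leukocytes along concentration gradients. They are grouped by the spacing of conserved cysteines near the amino terminus, adjacent in the CC family (Ccl) and separated by a single residue in the CXC family (Cxcl). Their receptors are G-protein-coupled proteins of the cell surface, and 1 receptor often binds several ligands. The atypical receptors (Ackr) bind chemokines without classical G-protein signalling and transport, present or remove them. In obese fat, chemokine signals are known for the recruitment of monocytes and lymphocytes.

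The libraries held 8054560 to 22458630 reads counted in genes, fewest in knockout replicate 1. Mpst had 1358, 1394 and 1624 reads in the wild-type group, replicates 1 to 3 in order, and 3, 10 and 9 in the knockouts, so each library matched its label. Adipocyte markers summed to 54143 to 63569 CPM (counts scaled to library size) in wild type and 35989 to 44708 CPM in the knockouts. Of these 8 markers, 2 were called lower and none higher, against 2.65% and 4.76% of all tested genes. They were Cfd (log2 fold change −2.06, edgeR adjusted p = 0.0144) and Lipe (−0.70, edgeR adjusted p = 0.0415). Fabp4, the most abundant, stood at 32409 ± 3450 and 24571 ± 3590 CPM and was not called (−0.40, edgeR adjusted p = 0.236). Adipoq, Plin1, Cidec and Pparg were not called either, nor was Lep, with a log2 fold change of 0.22. Markers of the inguinal lymph node and of mammary tissue, which the dissection could include, were low. B cell markers summed to at most 14.95 CPM in any library and mammary epithelial markers to at most 0.484 CPM, and the lymph node gene Glycam1 had no counts. Macrophage markers summed to 1630, 1404 and 882 CPM in wild type and to 2047, 2246 and 2195 CPM in the knockouts, with 5 of 12 higher in the knockout and none lower at an edgeR adjusted p under 0.05, against 4.76% and 2.65% of all tested genes. Skeletal muscle markers summed to 43.7 to 2034 CPM and were highest in knockout replicate 3 and wild-type replicate 2.

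Of the genes described 5 passed edgeR's quasi-likelihood test at an adjusted p under 0.05, and each was higher in the knockout. The ligands Ccl3, Ccl4, Cxcl10 and Ccl9 rose 3.67-fold, 2.53-fold, 2.45-fold and 2.09-fold, and the atypical receptor Ackr1 rose 1.67-fold. These were 4 of 25 tested ligands and 1 of 12 tested receptors, against 4.76% of all 14065 tested genes called higher. No ligand or receptor was called lower, against 2.65% of all tested genes. With DESeq2, 7 ligands and 2 receptors were higher and 1 ligand was lower, against 7.36% and 6.29% of its tested genes. At an unadjusted p under 0.05 by edgeR, 15 of these 37 genes were higher and 2 lower, against 14.9% and 12.7% of all tested genes. In bulk tissue a larger number of cells that express a gene and more transcript per cell cannot be told apart.

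The difference between ligands and receptors was not tested. The median log2 fold change was 0.41 over the tested ligands and 0.57 over the tested receptors, against 0.01 over all tested genes. Of the ligands 18 lay above 0 and of the receptors 9. Every knockout library exceeded every wild-type library in 8 ligands and 5 receptors, against 17.8% of all tested genes, and the order was the opposite in 2 ligands and no receptor, against 15.5%. The 5 calls did not hold in every fit with 1 library left out. Without wild-type replicate 2, knockout replicate 2 or knockout replicate 3, none of these genes was called. In those fits at most 1 of all genes was called higher, so the loss was not particular to these 5 genes. The number called was 1 without knockout replicate 1 (Ccl5), 4 without wild-type replicate 1 and 8 without wild-type replicate 3. Of all genes tested in these 3 fits, 0.285%, 3.73% and 10.1% were called higher and 0.0348%, 1.82% and 8.22% lower.

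**Figure D1:**
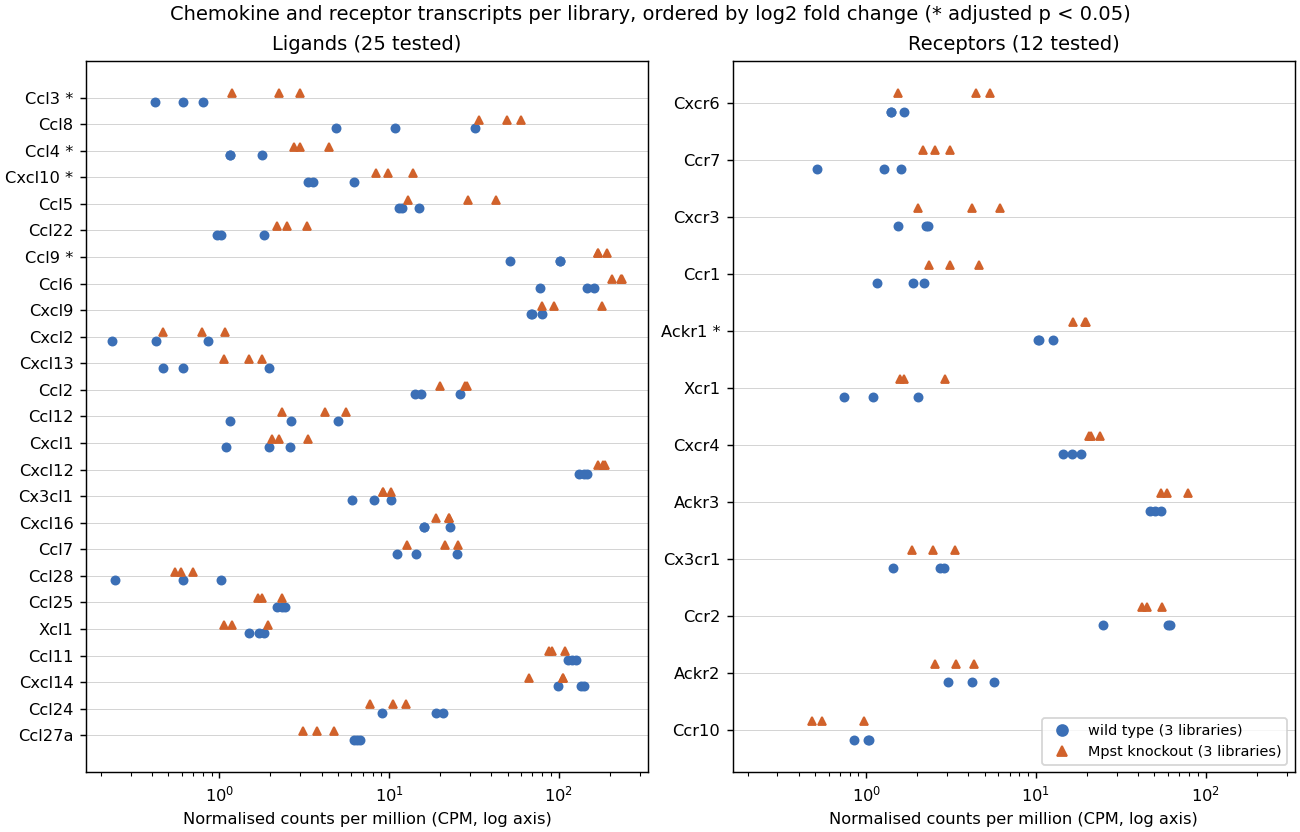
Level of each tested ligand (left) and receptor (right) in every library, in CPM on a log axis, with wild-type libraries as circles and knockout libraries as triangles. Genes are ordered by log2 fold change and an asterisk marks an adjusted p under 0.05. The groups are apart for Ccl9 (at most 102 CPM in wild type, at least 171 CPM in the knockouts) and mixed for Ccr2.

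Ccl3 (macrophage inflammatory protein 1-alpha) and Ccl4 (its beta form) are inflammatory chemokines of macrophages and lymphocytes, and both rose. Values are in the order of replicates 1, 2 and 3 throughout. Ccl3 was rare, with 13, 10 and 9 reads in wild type against 10, 51 and 70 reads in knockout. Scaled, these were 0.797, 0.608 and 0.418 CPM against 1.19, 2.25 and 2.97 CPM, without overlap (log2 fold change 1.88, SE 0.42, edgeR adjusted p = 0.036, range 1.57 to 2.12 with each library left out). The call held without wild-type replicate 3 and ended without any of the other 5 libraries. Knockout replicate 1, the shallowest library, lay closest to wild type.

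Ccl4 had 29, 19 and 25 reads in wild type against 23, 68 and 105 in knockout. Its levels were 1.78, 1.16 and 1.16 CPM against 2.74, 2.99 and 4.46 CPM, again without overlap (log2 fold change 1.34, SE 0.32, edgeR adjusted p = 0.0415, range 1.08 to 1.57). Its call held without wild-type replicate 1 or 3 and ended without any of the other 4 libraries. Ccl5, the T cell and macrophage chemokine RANTES, was more abundant and less even. It stood at 11.46, 15.08 and 11.98 CPM in the wild-type libraries and at 12.9, 29.2 and 42.6 CPM in the knockouts, so that knockout replicate 1 lay inside the wild-type range. The log2 fold change was 1.16 (SE 0.36, edgeR adjusted p = 0.0836), and 1.48 without knockout replicate 1, where the gene was called, as it was with DESeq2.

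Ccl9 and Ccl6 are myeloid chemokines of the CC family that bind Ccr1 and lie next to each other on chromosome 11. Ccl9 stood at 102, 101 and 52.0 CPM in the wild-type libraries and at 171, 192 and 171 CPM in the knockouts. The groups did not overlap, the knockout libraries were close together, and wild-type replicate 3 was lowest (log2 fold change 1.07, SE 0.24, edgeR adjusted p = 0.0348, range 0.81 to 1.23). As for Ccl4, the call held only without wild-type replicate 1 or 3.

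Of the ligands described, Ccl6 had the most reads in the knockout. Its share of their reads was 20.7% ± 1.21 (SD, n = 3) against 15.7% ± 4.11 in wild type. Its levels were 146, 160 and 77.9 CPM in the wild-type libraries and 207, 237 and 233 CPM in the knockouts. Wild-type replicate 3 was again the lowest, and the groups did not overlap. Its log2 fold change was 0.82 (SE 0.24, edgeR adjusted p = 0.0712). Ccl6 was called with DESeq2 and also without wild-type replicate 3, where its log2 fold change was 0.56. Ccr1, the receptor both bind, had only 31, 36 and 25 reads in wild type against 26, 105 and 55 in knockout. That gave 1.90, 2.19 and 1.16 CPM against 3.10, 4.62 and 2.33 CPM, which did not overlap and did not pass (log2 fold change 0.95, SE 0.36, edgeR adjusted p = 0.128).

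Macrophage markers stood beside these genes. Their sum was lowest in wild-type replicate 3, the library in which Ccl6 and Ccl9 were lowest, and was higher in each knockout library than in any wild-type library. Among the 12 markers Itgam (CD11b) rose from 9.35 ± 1.48 to 27.3 ± 3.38 CPM (log2 fold change 1.55, edgeR adjusted p = 0.0119) and Adgre1 (F4/80) from 30.9 ± 12.8 to 90.4 ± 13.4 CPM (1.55, edgeR adjusted p = 0.0191). The part of these cells in the chemokine values was not tested.

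**Figure D2:**
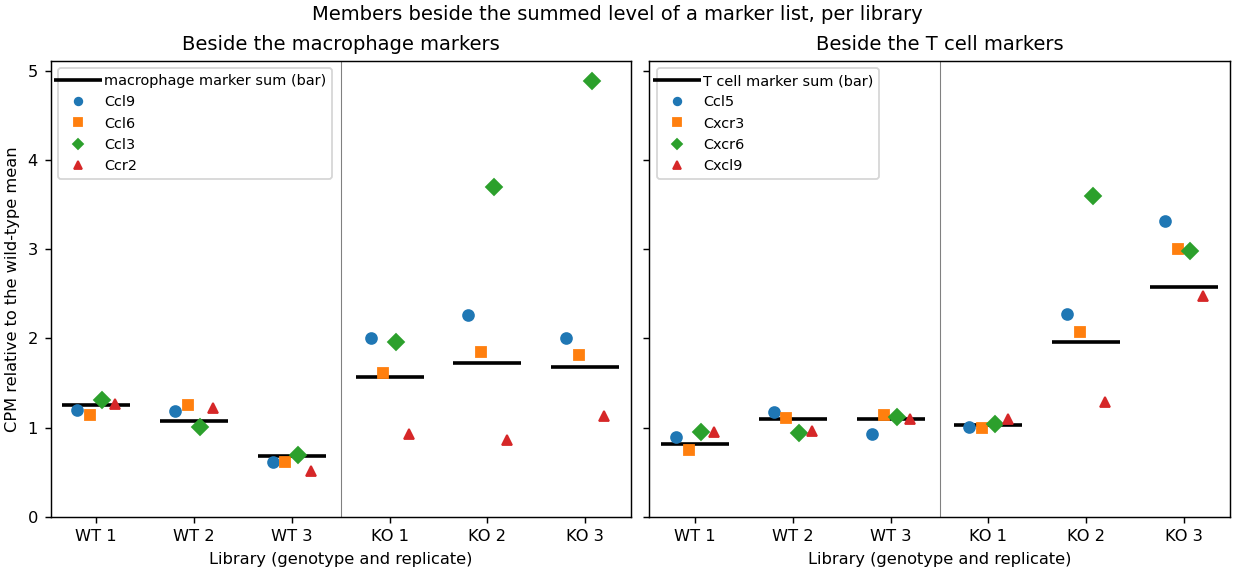
Levels of selected members (coloured points) and the summed level of a marker list (black bars) in each library, both in CPM divided by the wild-type mean of the same quantity. The macrophage sum was higher in the 3 knockout libraries (2047 to 2246 CPM) than in wild type (882 to 1630 CPM), while Ccr2 was not, and the T cell sum, Ccl5, Cxcr3 and Cxcr6 in knockout replicate 1 were near wild type.

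The sequences before the starts of Ccl3, Ccl9 and Cxcl10, the called ligands with an entry in the RefSeq promoter table (GRCm38.p6), are given because these genes were higher together. Each run is the 250 bases before the annotated start, 5′ to 3′ on the strand of the gene, which is the minus strand in all 3. Capitals mark matches, on either strand, to 4 motifs, namely the NF-kB consensus, the core of the interferon-stimulated response element (GAAANNGAAA), the TATA box (TATAAA) and the ETS core (GGAAGT). Ccl3 covers chr11:83649379-83649628, Ccl9 chr11:83578637-83578886 and Cxcl10 chr5:92348890-92349139.
Ccl3: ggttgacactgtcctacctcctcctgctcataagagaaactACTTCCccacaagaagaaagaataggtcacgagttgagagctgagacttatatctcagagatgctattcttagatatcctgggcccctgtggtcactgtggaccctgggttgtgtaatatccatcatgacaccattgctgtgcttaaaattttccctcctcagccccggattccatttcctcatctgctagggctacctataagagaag
Ccl9: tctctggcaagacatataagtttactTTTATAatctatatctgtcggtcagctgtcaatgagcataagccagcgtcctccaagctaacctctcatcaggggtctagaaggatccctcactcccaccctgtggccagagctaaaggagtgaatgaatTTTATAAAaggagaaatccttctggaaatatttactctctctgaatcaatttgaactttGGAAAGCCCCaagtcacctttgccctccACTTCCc
Cxcl10: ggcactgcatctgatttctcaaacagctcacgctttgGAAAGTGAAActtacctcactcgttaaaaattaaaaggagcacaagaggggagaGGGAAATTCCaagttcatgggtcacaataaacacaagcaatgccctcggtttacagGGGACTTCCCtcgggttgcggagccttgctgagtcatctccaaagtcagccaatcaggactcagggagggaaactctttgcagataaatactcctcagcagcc

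In Cxcl10 the interferon element lies 213 to 204 bases before the start, and NF-kB matches lie 159 to 150 and 103 to 94 bases before it. An ETS match on the opposite strand overlaps the second NF-kB match. Ccl9 has an NF-kB match 35 to 26 bases and an ETS match 7 to 2 bases before the start, both on the opposite strand. Its TATA matches lie farther upstream, and a pair of them overlaps on opposite strands. In Ccl3 the only match is to the ETS core, 209 to 204 bases before the start. The share of all 32851 windows of this length in the table with at least 1 match was 3.90% for NF-kB, 2.98% for the interferon element, 12.4% for the TATA box and 19.7% for the ETS core. Among the 31 windows that belong to tested members, 5, 2, 10 and 10 had a match. A match describes letters and is not evidence of binding.

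Cxcl10, an interferon-induced ligand of Cxcr3 that attracts activated T cells, stood at 3.56, 3.34 and 6.18 CPM in the wild-type libraries and at 8.35, 9.86 and 13.8 CPM in the knockouts. The groups did not overlap (log2 fold change 1.29, SE 0.29, edgeR adjusted p = 0.037, range 1.06 to 1.65). Of the 6 fits with a library left out, the call held only in that without wild-type replicate 3. An exon of Art3, on the opposite strand, overlaps Cxcl10 in the annotation. The library kit does not mark strand, so reads there cannot be told apart. Art3 had 3427 to 8294 reads a library (log2 fold change 0.11, edgeR adjusted p = 0.69), and the part of reads from Art3 in the Cxcl10 value was not tested.

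Cxcl9, a second interferon-induced ligand of Cxcr3, was more abundant and stood at 69.0, 69.5 and 79.3 CPM in the wild-type libraries and at 79.2, 93.7 and 179.5 CPM in the knockouts. Wild-type replicate 3 and knockout replicate 1 were nearly level, and knockout replicate 3 was highest (log2 fold change 0.70, SE 0.27, edgeR adjusted p = 0.138, range 0.25 to 0.91, the lowest without knockout replicate 3). Cxcl11, the other ligand, had 1, 5 and 21 reads in wild type against 0, 9 and 10 in knockout and was not tested. Their receptor Cxcr3 stood at 1.53, 2.25 and 2.32 CPM in the wild-type libraries and at 2.03, 4.23 and 6.11 CPM in the knockouts. It overlapped between the groups (log2 fold change 1.05, SE 0.39, edgeR adjusted p = 0.12).

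Cxcr6, a receptor of tissue-resident T and NKT cells that binds Cxcl16, stood at 1.41, 1.40 and 1.67 CPM in the wild-type libraries and at 1.55, 5.37 and 4.46 CPM in the knockouts. As for Ccl5 and Cxcr3, knockout replicate 1 lay inside the wild-type range and the other knockout libraries above it. The log2 fold change was 1.39 (SE 0.41, edgeR adjusted p = 0.0718), and the gene was called with DESeq2 and also without wild-type replicate 3, where it was 1.49. Its ligand Cxcl16, a membrane-bound chemokine, stood at 22.8, 16.2 and 16.2 CPM against 19.0, 22.5 and 22.5 CPM (log2 fold change 0.22, SE 0.17, edgeR adjusted p = 0.433). The summed T cell markers showed the same pattern, with sums of 14.4, 19.3 and 19.4 CPM in the wild-type libraries and 18.2, 34.7 and 45.7 CPM in the knockouts. Of the 9 T cell markers in the files, none was called by edgeR. In knockout replicate 1, 7 of them did not exceed the highest wild-type library, while Lck (5.13 against at most 4.60 CPM) and Cd28 (1.07 against at most 0.743 CPM) did. The part of T cells in these values was not tested.

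Ackr1, the Duffy antigen receptor of venular endothelium and red cell precursors, binds many CC and CXC chemokines and carries them across the vessel wall. It had the smallest standard error of the called genes. Its levels were 12.7, 10.5 and 10.3 CPM in the wild-type libraries and 19.8, 19.4 and 16.6 CPM in the knockouts (log2 fold change 0.74, SE 0.16, edgeR adjusted p = 0.0311, range 0.68 to 0.85), and its call too held only without wild-type replicate 1 or 3. Endothelial markers summed to 1022 to 1093 CPM in the wild-type libraries and 1203 to 1367 CPM in the knockouts. Of these 8 markers, 1 was called higher, against 4.76% of all tested genes, namely Vwf (log2 fold change 0.40, edgeR adjusted p = 0.0467). The part of endothelial cells in the Ackr1 value was not tested. Ackr1 shares annotated exon sequence with Cadm3 on the same strand, which did not pass (log2 fold change −0.08, edgeR adjusted p = 0.798).

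The other atypical receptors were not called. Ackr3, a scavenger of Cxcl12, had the largest mean share of receptor reads in both groups, 36.2% ± 5.12 of the reads of the receptors described in knockout and 36.3% ± 6.15 in wild type (SD, n = 3 each). Ccr2 had more reads than Ackr3 in wild-type replicates 1 and 2 and in knockout replicate 3. Ackr3 stood at 50.4, 54.7 and 47.4 CPM in the wild-type libraries and 78.5, 59.2 and 54.8 CPM in the knockouts (log2 fold change 0.33, SE 0.15, edgeR adjusted p = 0.193). The highest wild-type and the lowest knockout library were nearly equal. Ackr2, a scavenger of inflammatory CC chemokines, stood at 4.30 ± 1.32 CPM in the wild-type libraries and 3.41 ± 0.873 CPM in the knockouts (log2 fold change −0.36, SE 0.31, edgeR adjusted p = 0.491). Ackr4, which scavenges homeostatic chemokines, had 3 to 10 reads a library and was not tested.

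Cxcl12, the stromal chemokine that retains leukocytes and progenitors through Cxcr4, differed little but evenly. It stood at 147, 140 and 132 CPM in the wild-type libraries and at 182, 170 and 188 CPM in the knockouts. The groups did not overlap, and the difference passed with DESeq2 but not with edgeR (log2 fold change 0.36, SE 0.11, edgeR adjusted p = 0.0795). Its receptor Cxcr4 showed a difference of like size, 16.2, 18.4 and 14.4 CPM against 24.0, 20.6 and 21.2 CPM, without overlap (log2 fold change 0.42, SE 0.14, edgeR adjusted p = 0.102). Fibroblast and progenitor markers summed to 2777 to 3844 CPM in wild type and to 4421 to 5510 CPM in the knockouts. Of these 8 markers, 3 (Dcn, Lum and Col3a1) were called higher and none lower, against 4.76% and 2.65% of all tested genes. Pi16 and Dpp4 of the same list had log2 fold changes of −2.1 and −0.46 and were not called. The part of fibroblasts and progenitors in the Cxcl12 value was not tested.

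Ccr2, the receptor that brings classical monocytes into tissue, did not separate the groups. Its levels were 61.7, 59.8 and 25.0 CPM in the wild-type libraries and 45.1, 42.2 and 55.2 CPM in the knockouts. The knockout libraries all lay within the wild-type range, and wild-type replicate 3 was the lowest of the 6. The log2 fold change was −0.04 (SE 0.30, edgeR adjusted p = 0.952), between −0.35 and 0.18 with each library left out.

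The ligands of Ccr2 were not called. Ccl2, the monocyte chemoattractant MCP-1, stood at 26.3, 14.2 and 15.4 CPM in the wild-type libraries and at 28.9, 28.0 and 20.0 CPM in the knockouts. Wild-type replicate 1 lay among the knockout libraries (log2 fold change 0.46, SE 0.25, edgeR adjusted p = 0.269, range 0.29 to 0.79). Ccl7, a related monocyte chemoattractant, stood at 25.3, 14.4 and 11.1 CPM against 25.5, 21.3 and 12.8 CPM (log2 fold change 0.22, SE 0.33, edgeR adjusted p = 0.71). Ccl12, the mouse MCP-5, ranged from 1.16 to 5.01 CPM in wild type and from 2.33 to 5.60 CPM in the knockouts (log2 fold change 0.41, SE 0.51, edgeR adjusted p = 0.643). Summed over these 3 ligands, the level was 38.5 ± 13.6 CPM in the wild-type libraries and 49.5 ± 12.9 CPM in the knockouts (SD, n = 3), a difference smaller than either SD.

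Ccl8 (MCP-2), a ligand of Ccr8 in the mouse, had the most uneven wild-type libraries among the abundant ligands. It stood at 31.9, 10.8 and 4.88 CPM in the wild-type libraries and at 33.9, 60.1 and 49.9 CPM in the knockouts. The groups only just did not overlap, since wild-type replicate 1 was close to knockout replicate 1. The log2 fold change was 1.61 with an SE of 0.66 (edgeR adjusted p = 0.181). Without wild-type replicate 1 it was 2.64 and the gene was called, and without wild-type replicate 3 it was 1.18. Ccr8 had 1 read in each of 2 knockout libraries and none elsewhere.

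Ccl11, Ccl24, Cxcl14 and Ccl27a had log2 fold changes below 0, and none of them was called by edgeR. Ccl11 (eotaxin-1), which attracts eosinophils through Ccr3, stood at 126, 120 and 114 CPM in the wild-type libraries and 109, 91.6 and 87.9 CPM in the knockouts. The groups did not overlap (log2 fold change −0.32, SE 0.12, edgeR adjusted p = 0.137). Its share of the reads of the ligands described was 15.0% ± 1.05 in wild type and 8.90% ± 1.59 in knockout (SD, n = 3). This share also reflects the other ligands. Ccl24 (eotaxin-2), a product of alternatively activated macrophages, stood at 20.9, 19.0 and 9.15 CPM against 10.5, 12.5 and 7.68 CPM. Its groups overlapped (log2 fold change −0.67, SE 0.31, edgeR adjusted p = 0.20). Without wild-type replicate 3 the log2 fold change was −0.96 and the gene was called. Their receptor Ccr3 had 2, 3 and 1 reads in wild type against 1, 11 and 4 in knockout and was not tested. Among eosinophil markers Epx had no reads, while Prg2 had 16 to 32 and Ear2 5 to 51 reads a library. Neither Prg2 nor Ear2 was called by edgeR.

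Cxcl14, an abundant CXC chemokine of fibroblasts and adipose tissue, stood at 98.8, 134.5 and 141 CPM in the wild-type libraries and 105, 67.1 and 106 CPM in the knockouts, with overlap (log2 fold change −0.43, SE 0.20, edgeR adjusted p = 0.208). Ccl27a, a ligand of Ccr10, had the lowest log2 fold change of the tested members, −0.73 (SE 0.22, edgeR adjusted p = 0.075). It stood at 6.19, 6.75 and 6.45 CPM in the wild-type libraries and 3.10, 3.74 and 4.71 CPM in the knockouts, without overlap, and was called lower with DESeq2. Ccl27a overlaps exons of Il11ra1 on the opposite strand and has annotated near copies, so its count is uncertain. Il11ra1 itself had a log2 fold change of −0.44 (edgeR adjusted p = 0.0938). Ccr10 stood at 0.972 ± 0.105 and 0.666 ± 0.265 CPM, from 4 to 22 reads a library (log2 fold change −0.48, SE 0.38, edgeR adjusted p = 0.447).

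**Figure D3:**
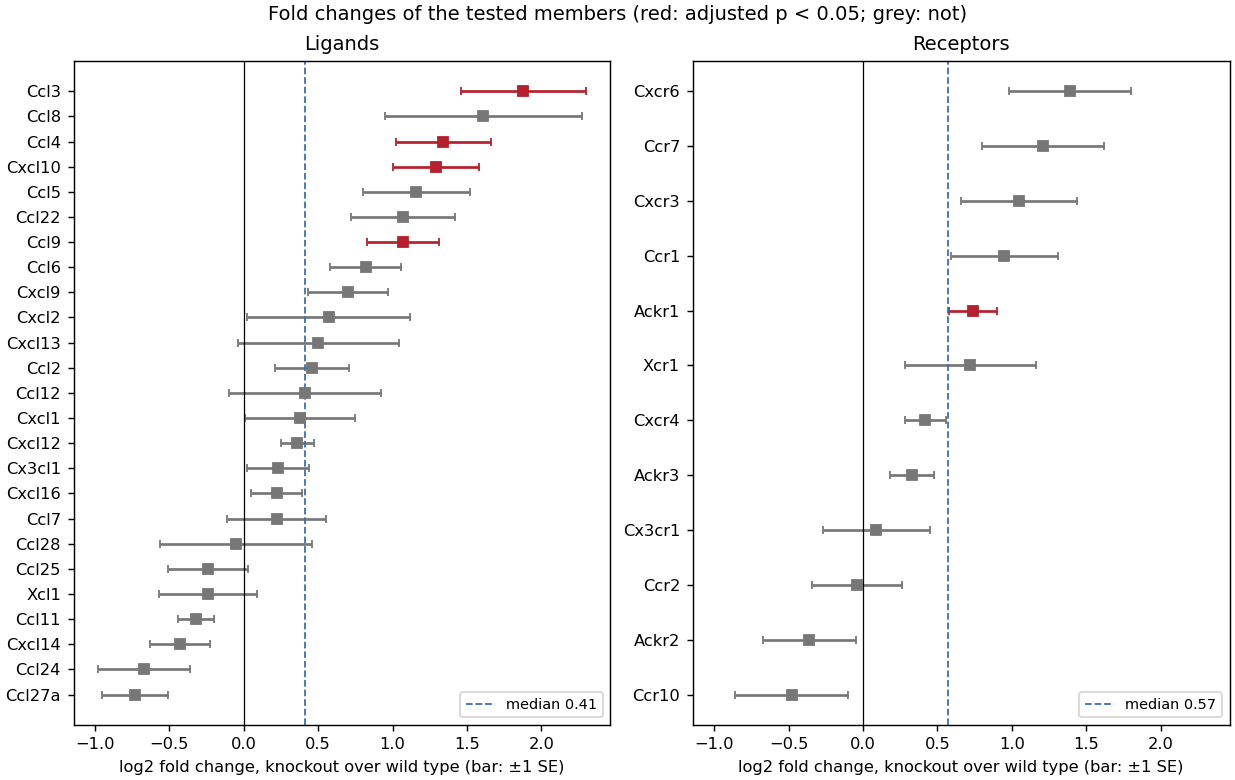
Log2 fold change, knockout over wild type, of the tested ligands (left) and receptors (right) with bars of 1 SE to each side. Called genes are red and the dashed lines mark the medians of 0.41 and 0.57. The called genes lie between 0.74 (Ackr1) and 1.88 (Ccl3), and Ccl8 has a larger fold change than Ccl4 with a wider bar.

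Genes of dendritic and lymphoid cell traffic were scarce. Ccr7, which leads dendritic and naive T cells to lymph nodes, stood at 1.59, 1.28 and 0.511 CPM in the wild-type libraries and 3.10, 2.16 and 2.55 CPM in the knockouts. The groups did not overlap (log2 fold change 1.21, SE 0.41, edgeR adjusted p = 0.104). Ccl22, a product of dendritic cells and macrophages, was also apart, at 1.84, 0.973 and 1.02 CPM against 2.504, 2.20 and 3.27 CPM (log2 fold change 1.07, SE 0.35, edgeR adjusted p = 0.0885). Its receptor Ccr4 had 2 reads in knockout replicate 2 and none elsewhere. Xcr1, the receptor of cross-presenting dendritic cells, had 33, 18 and 16 reads in wild type against 14, 36 and 69 in knockout (log2 fold change 0.72, SE 0.44, edgeR adjusted p = 0.317). Xcl1, its ligand, made by T and NK cells, had a log2 fold change of −0.24 (SE 0.33, edgeR adjusted p = 0.687). Dendritic cell markers, of which Xcr1 and Ccr7 are 2, summed to 28.5 to 49.9 CPM in the wild-type libraries and 68.0 to 76.7 CPM in the knockouts, and none of the 8 was called by edgeR. Without Itgax, which stood at 12.8 ± 7.12 and 41.2 ± 7.18 CPM, the sums of the other 7 overlapped, at 23.4 to 30.6 CPM and 27.3 to 40.3 CPM, a split chosen after the values were seen.

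Cxcl13, the B cell chemokine, had 32, 10 and 10 reads in wild type against 15, 34 and 25 in knockout (log2 fold change 0.50, SE 0.54, edgeR adjusted p = 0.585). Its receptor Cxcr5 had 8, 1 and 2 reads against 3, 17 and 13 and was not tested. B cell markers overlapped between the groups, with sums of 6.27 to 14.95 CPM in the wild-type libraries and 10.8 to 13.95 CPM in the knockouts. Cx3cl1 (fractalkine), a membrane-bound ligand of endothelium and neurons, stood at 8.15 ± 2.08 and 9.55 ± 0.661 CPM (log2 fold change 0.23, SE 0.21, edgeR adjusted p = 0.522). Its receptor Cx3cr1, of patrolling monocytes and macrophages, stood at 2.35 ± 0.794 and 2.56 ± 0.74 CPM (0.09, SE 0.36, edgeR adjusted p = 0.89).

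Neutrophil chemokines and their receptors had few reads. Cxcl1 had 18 to 56 reads in a library and Cxcl2 5 to 18, with log2 fold changes of 0.38 (SE 0.37, edgeR adjusted p = 0.544) and 0.57 (SE 0.55, edgeR adjusted p = 0.542). Cxcl3 had 4 reads in all, 3 of them in knockout replicate 2, and Cxcl5 had 1 read in wild-type replicate 3. Their receptor Cxcr2 had 4, 1 and 2 reads in wild type against 1, 0 and 3 in knockout, and Cxcr1 had none. Of 10 neutrophil markers, 3 had enough counts for the test, and none of them was called by edgeR. They were S100a8 (88 to 586 reads a library), S100a9 (8 to 56) and Csf3r (28 to 126), while Ngp had no reads.

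The remaining tested ligands were Ccl25, a ligand of Ccr9 that guides thymocytes and gut T cells, and Ccl28, a mucosal ligand of Ccr10. Their log2 fold changes were −0.24 (SE 0.27, edgeR adjusted p = 0.596) and −0.05 (SE 0.51, edgeR adjusted p = 0.959). An exon of Elavl1 on the opposite strand overlaps Ccl25.

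Of the 23 members that were not tested, 7 had no reads in any library, 7 had fewer than 10 in all and 9 had at least 10. Among the last, Ccl17, a ligand of Ccr4, had 9, 6 and 10 reads in wild type against 2, 14 and 10 in knockout. Ccl19, a ligand of Ccr7 with more than 1 annotated copy, had 2, 4 and 6 against 4, 6 and 6, and Ccl1, a ligand of Ccr8, 3, 1 and 8 against 2, 3 and 0. The gut-homing receptor Ccr9 had 2, 2 and 4 against 0, 7 and 12. No fold change is given for these genes. Those with fewer than 10 were Ccl20, Ccl26, Ccr4, Ccr8, Cxcl3, Cxcl5 and Cxcl17, with 1 to 4 reads each over all libraries. The members without reads were Ccl21a, Ccl21b, Ccl21c, Ccl27b, Ccr6, Cxcl15 and Cxcr1. A count of 0 allows up to 3 reads, or 0.127 CPM in knockout replicate 3 and 0.358 CPM in knockout replicate 1, for counting error only. The Ccl21 genes and Ccl27b are near-identical copies. The sources do not say whether reads placed at several sites were counted, so their 0 cannot be taken as their level.

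Levels can be compared between genes only per length. Values were scaled to CPM per kilobase of annotated exon and averaged over the 6 libraries. Of the tested members, Ccl11 (99.9) and Ccl6 (98.4) were highest, followed by Ccl8 (62.5), Cxcl14 (59.5) and Ccl9 (43.2). In wild type, Ccl11 led with 111 ± 5.62 CPM per kilobase, ahead of Ccl6 at 71.4 ± 24.5 and Cxcl14 at 68.2 ± 12.4, which did not differ beyond their spread. In knockout, Ccl6 led with 126 ± 9.06, Ccl8 followed at 93.8 ± 25.9 and Ccl11 at 89.0 ± 10.6, the last a pair within their spread. The highest receptors were Ackr3 (17.2 CPM per kilobase), Cxcr4 (10.6), Ackr1 (10.6) and Ccr2 (7.12), all far below the leading ligands. Ccr2 stood at 7.22 ± 3.05 CPM per kilobase in wild type and 7.03 ± 1.01 in knockout. Exon length is that of all annotated isoforms joined, which understates a level where a long isoform is not used.

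Many chemokine genes lie in groups that arose by duplication, and neighbours within 500 kb were compared. On chromosome 11, Ccl5, Ccl9, Ccl6, Ccl3 and Ccl4 lie within 138.9 kb (83525778 to 83664683, GRCm38). All 5 were tested, with log2 fold changes of 1.16, 1.07, 0.82, 1.88 and 1.34. Of these, 3 were called higher, against 4.76% of all tested genes. A second group on the same chromosome holds Ccl2, Ccl7, Ccl11, Ccl12, Ccl8 and Ccl1 within 270.1 kb (82035571 to 82305690). None of its 5 tested genes was called, against 4.76% of all tested genes called higher and 2.65% lower. Their log2 fold changes ran from −0.32 for Ccl11 to 1.61 for Ccl8. The difference between the 2 groups was not tested.

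On chromosome 9, the receptor genes Ccr9, Cxcr6, Xcr1, Ccr1, Ccr3 and Ccr2 lie within 435.1 kb (123678439 to 124113557). Cxcr6, Xcr1 and Ccr1 had log2 fold changes of 0.72 to 1.39 and Ccr2 of −0.04, none of them called by edgeR. On chromosome 5, Cxcl9 and Cxcl10, which lie beside Cxcl11 within 44.1 kb, had log2 fold changes of 0.70 and 1.29. Cxcl1 and Cxcl2, in a different group on that chromosome, had 0.38 and 0.57.

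**Figure D4:**
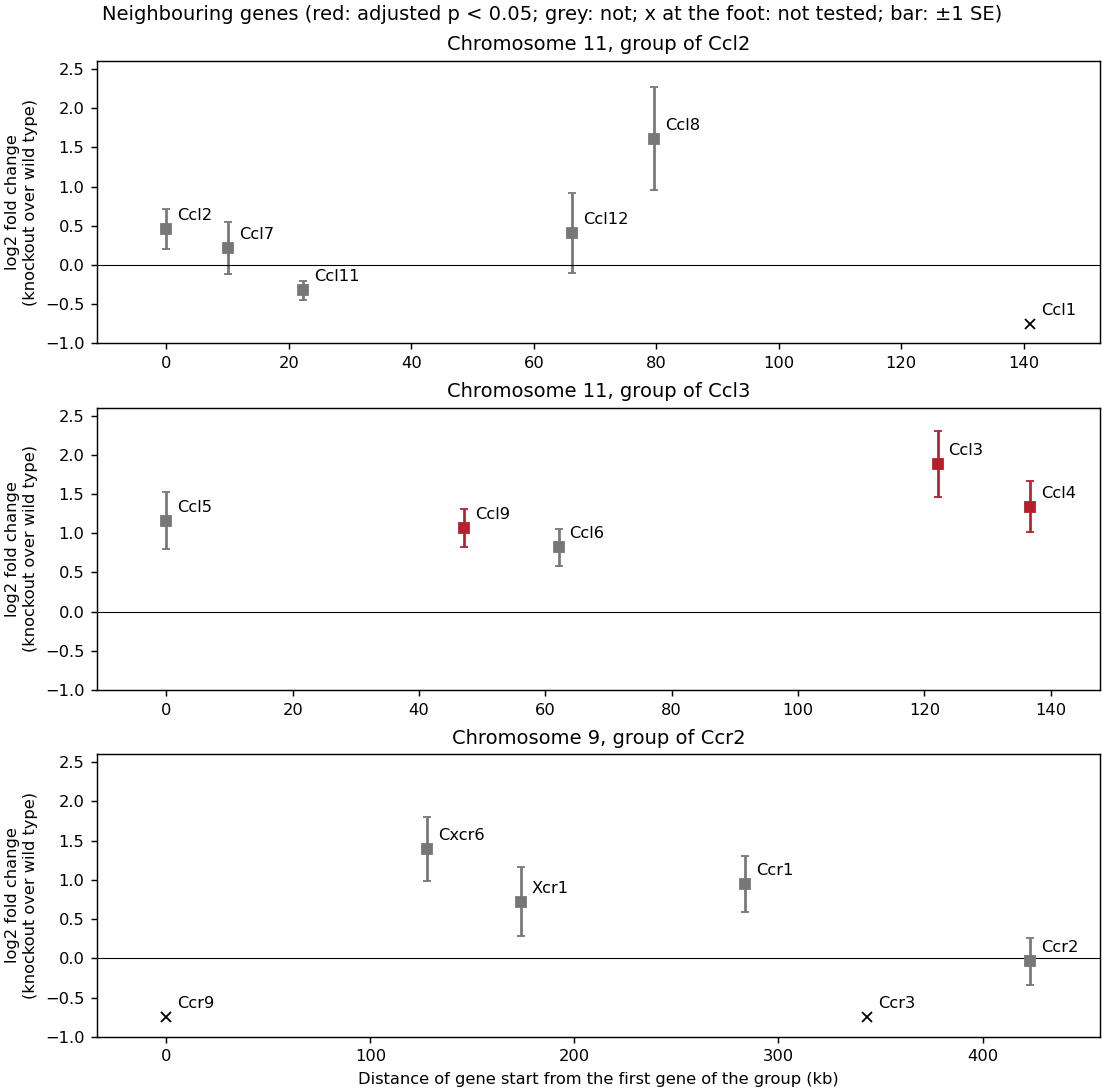
Log2 fold change, knockout over wild type, with bars of 1 SE to each side, of neighbouring members against the distance of their starts from the first gene of the group in kb. Called genes are red, and a cross at the foot marks a gene that was not tested. All 5 genes of the Ccl3 group lie at 0.82 or above, while the Ccl2 group runs from −0.32 to 1.61, and Ccr2 lies near 0 beside receptors at 0.72 to 1.39.

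Of 32 ligand and receptor pairs of a textbook list, 16 had both genes tested. In none of these 16 were both genes called by edgeR, and in 3 the ligand was, namely Ccl3 with Ccr1, Ccl9 with Ccr1 and Cxcl10 with Cxcr3. Of all tested genes, taken singly, 4.76% were called higher and 2.65% lower. Genes such as Ccr1 recur in several pairs, so the pairs are not independent. Ligands of Ccr1 (Ccl3, Ccl5, Ccl6 and Ccl9) summed to 261, 277 and 142 CPM against 392, 461 and 449 CPM, without overlap. The ligands of Cxcr3 summed to 72.6, 73.1 and 86.4 CPM against 87.5, 104 and 194 CPM, and those of Ccr3 to 147, 139 and 123 CPM against 120, 104 and 95.6 CPM.

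Genes that act behind the receptors were read from lists of textbook members. Of 41 tested genes of chemokine receptor signalling, 11 were higher and 1 lower, against 4.76% and 2.65% of all tested genes, with a median log2 fold change of 0.42 against 0.01 over all tested genes. Rgs1, a regulator that shortens G-protein signals in leukocytes, rose from 1.80 ± 1.40 to 14.1 ± 2.91 CPM (log2 fold change 2.99, edgeR adjusted p = 0.0154). Rap1a, a small GTPase of integrin activation, rose from 52.8 ± 0.711 to 82.7 ± 3.50 CPM (0.65, edgeR adjusted p = 0.0156). Rgs2, a second regulator of this family, rose from 19.1 ± 2.01 to 32.5 ± 3.57 CPM (0.77, edgeR adjusted p = 0.0225). Pik3r5, the regulatory subunit of the G-protein-coupled kinase PI3K-gamma, rose from 9.80 ± 0.586 to 20.8 ± 5.23 CPM (1.10, edgeR adjusted p = 0.0222), and Prex1, an exchange factor for Rac, from 5.10 ± 0.345 to 12.6 ± 4.03 CPM (1.30, edgeR adjusted p = 0.0259). The gene that fell was Gngt2, a G-protein gamma subunit (−0.79, edgeR adjusted p = 0.0384). Several of these genes are leukocyte genes, and the macrophage marker sum was higher in the same libraries; its part in these values was not tested.

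Among 14 tested genes of chemokine processing and binding to the cell surface, 3 rose and none fell, against 4.76% and 2.65% of all tested genes. They were Tnfaip6, a matrix protein that binds chemokines (log2 fold change 1.76, edgeR adjusted p = 0.0264), Adam17, a protease that sheds Cx3cl1 (0.53, edgeR adjusted p = 0.0354), and the syndecan Sdc3 (0.51, edgeR adjusted p = 0.0378). Of 13 tested inducers of chemokine transcription, 1 was called higher and none lower, against the same 4.76% and 2.65%. It was Tnfaip3, a feedback inhibitor of NF-kB, which rose from 9.14 ± 0.882 to 15.6 ± 1.23 CPM (0.78, edgeR adjusted p = 0.0284). Of 9 tested chemokine and chemokine-like genes with other symbols, none was called higher and 1 lower, again against 4.76% and 2.65%. It was Cmklr1, the receptor of chemerin, which fell from 137 ± 26.7 to 82.5 ± 3.10 CPM (−0.73, edgeR adjusted p = 0.0303). The chemokine Pf4 of this list stood at 72.0 ± 20.8 and 74.9 ± 13.2 CPM (0.06, edgeR adjusted p = 0.896). It is not among the ligands counted above.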

How the data were processed

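RNA of 6 libraries was sequenced as 75 bp single-end reads from TruSeq RNA v2 libraries, per the labels' protocols. The submitters' processing notes name HISAT2 2.1.0, HTSeq 0.13.5, DESeq2 1.26 and mm10. The sources used here do not give the annotation or the counter settings. The authors deposited raw counts, whole numbers of reads for each gene symbol. The 5 summary lines of the counter were left out. Reads assigned to no feature were 8.85% to 14.7% of all reads counted in genes, as ambiguous or to no feature.

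Counts of all genes were fitted in R 4.3.3 with edgeR 4.0.16 (filterByExpr, TMM, robust quasi-likelihood F test, no covariates, all 6 libraries), with Benjamini-Hochberg adjustment over 14065 genes and calls under 0.05. The test was checked on simulated data. SE is the log2 fold change over the square root of F. CPM uses the scaled library size. Alternatives were relative log expression, limma-voom (limma 3.58.1), DESeq2 1.42.0, omission of the low-count filter, no robust estimation, a replicate block and each library left out. Positions and exon lengths came from GENCODE M21 (GRCm38), matched once for 57 of 60 genes. 1 further gene that matches the rule on symbols is not reported here, and it was left out of the counts of members and the figures but not of the fit. The named genes were to be every other member, in full where called, among the 12 highest per kilobase or paired with a called partner, and up to 5 called genes of each pathway list. Members and lists were chosen with earlier results of these data known.

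Each pair of replicates within a genotype differed beyond counting noise (median chi-square ratio 3.27 to 23.1), and each library counts as 1 replicate.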

Additional observations from a re-analysis of the deposited data

How the results depend on the processing

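With DESeq2 the number of members called was 10, with 7 ligands and 2 receptors higher and 1 ligand lower (Ccl27a), so 5 genes were added and none lost. With the replicate number as a block it was 11, with 3 receptors higher and 3 ligands lower (Ccl11, Ccl24 and Ccl27a), while 9.86% of all genes were called higher and 9.16% lower. The numbers are not shown to pair the libraries, since deviations from the group means correlated at 0.171, −0.0994 and 0.303 for numbers 1, 2 and 3, and not every library correlated best with its own number. Relative log expression, limma-voom, no low-count filter and no robust estimation each gave the same 5 calls. With each library left out, the number called ranged from 0 to 8, ligands higher from 0 to 5, receptors higher from 0 to 2 and ligands lower from 0 to 1, and no receptor was called lower. These fits hold fewer libraries, and the cause of their spread was not tested. Log2 fold changes near 0 changed sign. Ccl28 was 0.14 with limma-voom and 0.04 with the block, and ran from −0.41 to 0.53 with each library left out. Ccr2 was 0.08 with limma-voom and 0.05 with the block, and ran from −0.35 to 0.18. Ccl7 ran from −0.02 to 0.63 and Cx3cr1 from −0.17 to 0.29. None of these was called in any fit. Depth limits the genes of few reads most in knockout replicate 1.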
